A study of Mus musculus with 18 samples.

Results

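The genes described here are the ZBTB transcription factors that were expressed in mouse embryonic stem cells (ESCs). They were taken as the protein-coding genes with the symbol Zbtb followed by a number and at most 1 letter, and with at least 1 CPM (counts scaled to the size of the library) in at least 3 of 18 libraries. Of 40 such genes, 39 met the rule, out of 51467 genes in the count table and 15259 genes at that abundance. The cells were V6.5 mouse ESCs, of wild-type genotype (WT) or with a knockout of Ddx6 (KO), which encodes an RNA helicase that acts in translational repression and mRNA decay. The medium of all cultures held serum, LIF and 2i, and ribosomes were held on the mRNA with cycloheximide before lysis. Each of 3 WT and 3 KO sucrose gradients gave a monosome, a low polysome and a high polysome library, so that there were 6 groups of 3 libraries. The KO was made with CRISPR-Cas9, and KO gradient 1 came from one clone while KO gradients 2 and 3 came from a second clone. Translation level is used, as in the study, for high polysome abundance over monosome abundance, and the KO effect on it is the KO log2 ratio minus the WT log2 ratio. Zbtb7a was singled out because it rose most in translation level among the abundant genes, so its own values in that comparison are given as a description without a test.

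ZBTB proteins join a BTB domain, through which they pair with each other and recruit corepressors such as BCOR or the CUL3 ubiquitin ligase, to zinc fingers that bind DNA. Most known members act as repressors, and several direct cell fate in blood, lymphocytes and the nervous system. ZBTB7A, also called LRF or Pokemon, is best known for silencing the fetal globin genes and for its part in lymphoid fate. mRNAs that carry many ribosomes sediment with the high polysomes, whereas an mRNA with a single ribosome sediments in the monosome fraction. An mRNA without a ribosome lies in none of the fractions collected. DDX6 is one of the proteins through which miRNAs repress the mRNAs they bind.

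The libraries held 2543617 to 11474550 gene counts, and none of the 3 WT monosome libraries had more than 4894677, the least of any group. Ddx6 itself was examined first. It had 143 to 160 CPM in WT monosomes, 160 to 212 CPM in WT low polysomes and 182 to 200 CPM in WT high polysomes. In KO gradient 1 it had 57.3, 82.4 and 55.1 CPM in the same fractions, and in KO gradients 2 and 3 it ranged from 9.64 to 26.6 CPM. Every KO library was thus below every WT library, although reads at the 3′ end of the transcript lie outside the edited site and do not measure the protein. Of 8 ESC markers, 8 had a median of at least 10 CPM (36.5 to 613). None of 6 fibroblast or 5 primitive endoderm markers did, with highest medians of 4.96 and 2.08 CPM. Among 5 trophectoderm markers 2 had medians of at least 10 CPM, Gata3 at 20.6 and Krt18 at 17.8, and all 5 markers of 2-cell-like cells had medians under 1 CPM. Both of these lists stood higher in KO. The trophectoderm markers summed to 19.97 to 30.1 CPM in WT libraries and 51.5 to 132 CPM in KO libraries, where Krt18 reached 77.0 CPM. Over all libraries Cdx2 had at most 5.23 CPM and Elf5 at most 0.254 CPM. The 2-cell-like markers summed to 0.122 to 1.501 CPM in WT and 2.88 to 6.12 CPM in KO, with Zscan4f at 0 throughout. Neither sum overlapped between genotypes, and their part in the KO differences below was not tested. The sums of the fibroblast, primitive endoderm and ESC markers overlapped between genotypes. Since the libraries are bulk fractions, a change in the share of cells that use a gene cannot be told apart from a change within each cell.

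Reads marked 3′ ends, so CPM was not divided by transcript length. Zbtb44 was the most abundant member, at a mean of 203 CPM over the 18 libraries, followed by Zbtb7a at 88.3 and Zbtb43 at 83.8 CPM. The median member had 9.56 CPM. At the low end of the rule stood Zbtb16 (PLZF, a factor of germline stem cells and innate-like lymphocytes), whose third-highest library had 1.08 CPM, then Zbtb33 with 2.96 and Zbtb42 with 3.46. The gene outside the rule was Zbtb9, listed at 0 in all libraries, and 2748 nt of its annotated exons overlap Ggnbp1 on the same strand. Zbtb6 and Zbtb26 share 435 nt of exon on one strand, and their counts are uncertain to that extent. Tests were run on the 37 members that had at least 3 CPM in at least 3 libraries, which left out Zbtb33 and Zbtb16. Of these untested genes, Zbtb33 (Kaiso, a methyl-CpG binder) had 1.93 ± 0.935 CPM in WT high polysomes and 2.77 ± 0.655 in KO high polysomes (SD, n = 3 each). Zbtb16 had 0.426 ± 0.113 and 1.139 ± 0.261 CPM, at most 13 counts in any library.

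In WT cells more members were depleted from the high polysome than enriched there. Summed over the members other than Zbtb7a, whose WT values entered its choice, the level was 885 ± 40.0 CPM in the WT monosome, 764 ± 56.3 CPM in low polysomes and 629 ± 12.7 CPM in high polysomes (SD, n = 3 each). Of the 36 tested members other than Zbtb7a, 15 (41.7%) had lower high polysome than monosome levels and 2 (5.56%) had higher ones, where 32.2% and 28.9% of all 12705 genes were called in those directions (limma, Benjamini-Hochberg adjusted p under 0.05 here and below). Their median log2 difference was -0.42, beside -0.018 over all genes. Zbtb18, a repressor of neuronal development, was lowest at -2.38 (SE 0.24, limma adjusted p = 4.12e-08). Zbtb48, which binds telomere repeats, stood next to it at -2.37 (SE 0.25), followed by Zbtb4 at -2.0 (SE 0.25). Zbtb46, a factor of classical dendritic cells, was one of the 2 that were higher, with 3.57, 5.09 and 4.75 CPM in the WT monosomes and 9.97, 9.17 and 7.51 CPM in the WT high polysomes (log2 difference 0.91, SE 0.26, adjusted p = 0.00497). It was not called at equal depth (0.62, adjusted p = 0.0989). The other was Zbtb25 at 0.66 (SE 0.22), which was not called without WT gradient 3 (adjusted p = 0.172).

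Zbtb7a (ENSMUSG00000035011.15) lies on the plus strand at chr10:81136271-81152995 of GRCm38 (mm10). In WT gradients 1, 2 and 3 it had 182, 122 and 159 CPM in the monosome, 53.8, 60.7 and 58.4 CPM in the low polysome, and 34.9, 34.8 and 30.3 CPM in the high polysome. The WT level thus stepped down from fraction to fraction in every gradient. CPM is a share of each library, so this does not give the amount of the mRNA in each fraction. In KO gradients 1, 2 and 3 it had 122, 91.2 and 82.7 CPM in the monosome, 66.7, 79.5 and 63.3 CPM in the low polysome, and 104, 125 and 117 CPM in the high polysome. The high polysome levels of the 2 genotypes did not overlap, and neither did those of the low polysome. The monosome levels overlapped only through KO gradient 1, which stood beside the lowest WT library.

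**Figure D1:**
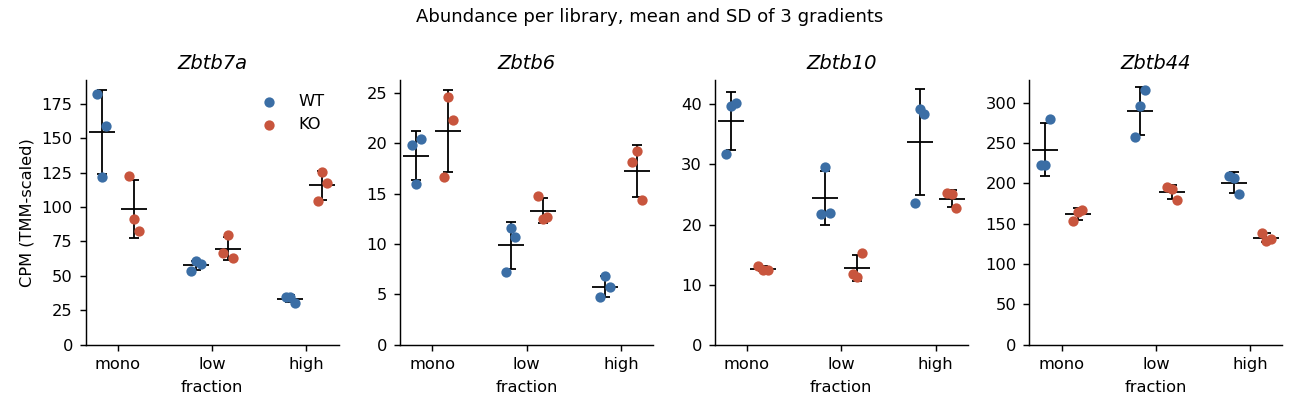
CPM after TMM scaling (vertical axis) of Zbtb7a, Zbtb6, Zbtb10 and Zbtb44 in the 3 fractions of WT and Ddx6 KO ESCs. Points are single gradients and bars give the mean and SD of 3. Zbtb7a fell from 154 to 33.3 CPM across the WT fractions and ended at 116 CPM in the KO high polysome, and Zbtb44 was lower in KO in all 3 fractions.

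The group means of Zbtb7a were 154 ± 30.4 CPM in the WT monosome and 98.8 ± 21 in the KO monosome, and 33.3 ± 2.62 in the WT high polysome and 116 ± 10.7 in the KO high polysome (SD, n = 3 each), so that the KO high polysome held 3.47 times the WT level. On the log2 scale the KO difference was -0.64 (SE 0.16) in the monosome and 1.79 (SE 0.16) in the high polysome. Per gradient, log2(high polysome / monosome) was -2.37, -1.80 and -2.37 in WT and -0.23, 0.46 and 0.50 in KO. The KO effect on translation level was 2.43 (SE 0.22), and it lay between 2.25 and 2.67 in 15 alternative analyses. It ranked 15 among the 12705 genes by that difference, and 1 among the called genes with a mean of at least 10 CPM. The low polysome change on its own, which did not enter the choice of the gene, was 0.27 (SE 0.16) and did not pass the test (limma adjusted p = 0.173).

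The 3′ UTR of Zbtb7a, 3787 nt in its longest annotated form, holds 2 matches to the seed of the ESCC miRNAs, the family that dominates the miRNA pool of mouse ESCs and through which the study examined DDX6. The mature sequences (RefSeq, GRCm38.p6) are shown with the seed, bases 2 to 8, in capitals. The 5 ESCC miRNAs were taken from RefSeq by this seed, that of mmu-miR-294-3p, so they share it by selection.
mmu-miR-294-3p: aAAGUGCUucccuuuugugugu
mmu-miR-302b-3p: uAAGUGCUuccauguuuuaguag
mmu-miR-295-3p: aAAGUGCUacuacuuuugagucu
The match on the mRNA is AGCACTT for the whole seed (7mer-m8), GCACTTA for bases 2 to 7 with an A opposite base 1 (7mer-A1), and AGCACTTA for both (8mer). A longer match was counted in place of any shorter one inside it, and the search was made on the transcribed strand of annotated 3′ UTRs. Both matches in Zbtb7a are 7mer-A1, at chr10:81148831-81148837 and chr10:81149005-81149011 on the plus strand, given here with the match in capitals.
Zbtb7a, first: cttcctcaggGCACTTActaaagaggg
Zbtb7a, second: ctccttcacgGCACTTAcacctgacgg

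Among the other members, every call in translation level was a rise. That their values were smaller than that of Zbtb7a follows from its choice as the strongest riser. Of the 36 other tested members, 6 (16.7%) rose in translation level in KO and 0 fell, where 10.7% of all genes tested rose and 7.09% fell. The share that rose rests on 6 calls, and its difference from the background was not tested. At an unadjusted p under 0.05, 13 rose and 0 fell, and edgeR and DESeq2 each also had 0 falling. The shares of all genes at that unadjusted threshold and in those tools were not counted, so these counts have no background beside them. The log2 difference was above 0 in 27 of 36 (75.0%) and below 0 in 9, with a median of 0.39, where 51.4% of all genes were above 0 and their median was 0.022. The values ran from -0.55 for Zbtb46 (SE 0.37, limma adjusted p = 0.314) to 1.39 for Zbtb6. Scaling by library size alone moved the median of all genes by -0.12 and left 5 members raised, with 936 genes raised and 1389 lowered in place of 1357 and 901. Without WT gradient 1, the shallowest monosome library, 2 members were called, Zbtb6 and Zbtb10.

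**Figure D2:**
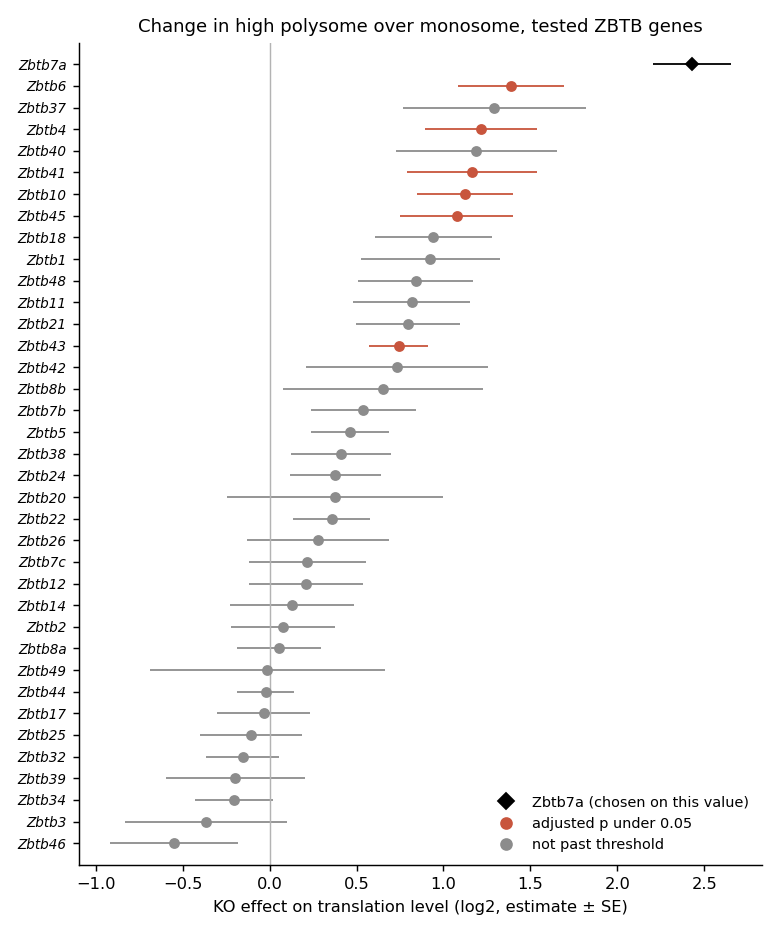
KO effect on translation level (log2, horizontal axis) of the 37 tested ZBTB genes, in order of size. Points are limma estimates and bars are ± 1 SE. Zbtb7a at 2.43 was chosen on this value. The 6 red genes, from Zbtb43 at 0.74 to Zbtb6 at 1.39, passed an adjusted p of 0.05.

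Zbtb6 had the largest value after Zbtb7a. In WT gradients 1, 2 and 3 it had 19.8, 16 and 20.4 CPM in the monosome and 4.73, 6.88 and 5.72 CPM in the high polysome. KO gave 16.6, 24.6 and 22.4 CPM in the monosome and 18.2, 19.3 and 14.4 CPM in the high polysome. The monosome levels overlapped between genotypes, whereas every KO high polysome was above every WT one. The KO effect was 1.39 (SE 0.30, limma adjusted p = 0.00455), and it was called in 15 of 15 alternatives, 6 of them leaving out 1 gradient.

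Zbtb10, which binds variant telomere repeats, was also called, with the larger change in the monosome. Its WT levels were 31.7, 39.8 and 40.2 CPM in the monosome and 23.5, 39.2 and 38.4 CPM in the high polysome. In KO they were 13.1, 12.4 and 12.4 CPM in the monosome and 25.2, 25 and 22.7 CPM in the high polysome. Here the monosome levels did not overlap, and the high polysome levels overlapped through WT gradient 1. The KO effect was 1.12 (SE 0.28, limma adjusted p = 0.00904), called in 15 of 15 alternatives.

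Zbtb43 was the most abundant of the 6. It had 104, 87.7 and 103 CPM in WT monosomes and 61, 65.8 and 56.3 CPM in WT high polysomes. KO monosomes had 89.1, 111 and 89.4 CPM and KO high polysomes 97.5, 101 and 103 CPM. The KO effect was 0.74 (SE 0.17, limma adjusted p = 0.0058), and it was lost without WT gradient 1 (adjusted p = 0.067) and without KO gradient 3 (0.0611).

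Zbtb4, a methyl-CpG binder, was less abundant, with 13.1, 11.6 and 8.88 CPM in WT monosomes and 2.30, 3.59 and 2.25 CPM in WT high polysomes. In KO it had 9.03, 7.95 and 10.5 CPM in the monosome and 5.10, 5.74 and 4.99 CPM in the high polysome. As for Zbtb6, the high polysome levels did not overlap while the monosome levels did. The KO effect was 1.21 (SE 0.32, limma adjusted p = 0.0136), and it was lost without WT gradient 1 (adjusted p = 0.0964) and without KO gradient 2 (0.0701).

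The last 2 calls were less stable. Zbtb45 had 25.4, 25 and 18 CPM in WT monosomes and 11.7, 16 and 17.6 in KO monosomes. Its WT high polysomes had 17, 14.2 and 18.6 CPM and its KO high polysomes 19.2, 26.2 and 25.6 CPM. The KO and WT levels did not overlap in either fraction. The KO effect was 1.08 (SE 0.32, limma adjusted p = 0.0269), and it was not called when WT gradient 1 (0.119), WT gradient 2 (0.162) or KO gradient 3 (0.0862) was left out, nor without the filter on low counts (0.97, adjusted p = 0.0765).

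Zbtb41 had 9.92, 12 and 13.2 CPM in WT monosomes and 5.85, 5.78 and 10.3 CPM in KO monosomes. Its high polysomes had 2.94, 4.19 and 4.97 CPM in WT and 6.54, 4.98 and 4.69 CPM in KO, with KO gradient 3 inside the WT range. The KO effect was 1.16 (SE 0.37, limma adjusted p = 0.0365). It was called in 6 of 15 alternatives, and of the 6 that left out a gradient only the one without KO gradient 3 kept it (adjusted p = 0.0343). The adjusted p was 0.102, 0.113 and 0.074 without WT gradients 1, 2 and 3, and 0.133 and 0.107 without KO gradients 1 and 2. At equal depth of 2543617 counts per library the effect was 0.65 (adjusted p = 0.469).

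**Figure D3:**
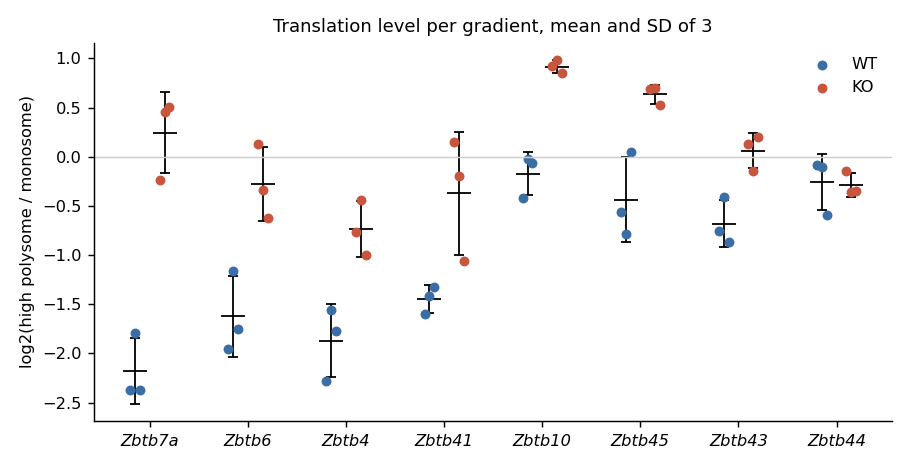
log2(high polysome / monosome) with a pseudocount of 0.5 CPM (vertical axis) in each WT and KO gradient, for Zbtb7a, the 6 members that were called and Zbtb44. Points are gradients and bars give the mean and SD of 3. KO and WT gradients were apart for the first 7 genes, by the smallest margin for Zbtb41 and Zbtb43, and overlapped for Zbtb44. Those 7 were chosen or called on this ratio, so their separation is no further support. Members that were not called, such as Zbtb18 and Zbtb48, were also apart, and the share of all genes that were apart was not counted.

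Among members with large values that did not pass, Zbtb37 had 1.29 (SE 0.53, limma adjusted p = 0.0924). It had 3.97, 11.1 and 9.49 CPM in WT monosomes, where gradient 1 was less than the others, and 8.88, 8.34 and 10.6 CPM in KO high polysomes. With the gradient as a block, since the fractions of a gradient come from the same lysate, Zbtb37 was called at 1.24 (adjusted p = 0.0166) and 7 members rose, and DESeq2 also called it (adjusted p = 0.0421). Zbtb40, a telomere-associated member, had 1.19 (SE 0.46, adjusted p = 0.0787) and was called only without KO gradient 1 (1.62, adjusted p = 0.0225).

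The relatives closest to Zbtb7a by name, Zbtb7b and Zbtb7c, were not called in translation level. ZBTB7B, or ThPOK, commits T cells to the helper lineage. Zbtb7b had 27.4, 24.5 and 28.9 CPM in WT monosomes and 53.8, 29.4 and 33.6 CPM in KO monosomes, and 13.3, 11.2 and 16 CPM in WT high polysomes and 30.3, 28.8 and 23 CPM in KO high polysomes. The genotypes did not overlap in either fraction, in the monosome by the narrow margin of KO gradient 2 over WT gradient 3. The monosome difference of 0.48 (SE 0.21, limma adjusted p = 0.0847) did not pass the test, and neither did the KO effect on translation level, 0.54 (SE 0.30, adjusted p = 0.219). Per gradient, log2(high polysome / monosome) of Zbtb7b was -1.015, -1.102 and -0.829 in WT and -0.818, -0.028 and -0.535 in KO. These ratios did not overlap, by a narrow margin. Zbtb7c had 7.54, 5.32 and 5.16 CPM in WT monosomes and 10.3, 9.51 and 11 CPM in KO monosomes. Its high polysomes had 6.26, 5.48 and 6.38 CPM in WT and 11.7, 12.3 and 13.2 CPM in KO. Again the genotypes did not overlap in either fraction, and the KO effect on translation level was 0.22 (SE 0.34, limma adjusted p = 0.691).

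The other members with known roles were spread over the family's range. Of the methyl-CpG binders tested, Zbtb38 had a KO effect of 0.41 (SE 0.29), beside the 1.21 of Zbtb4. Among the genome and telomere binders, Zbtb48 had 0.84 (SE 0.33) and Zbtb24, the gene mutated in a form of ICF immunodeficiency, had 0.38 (SE 0.26). Of the developmental regulators, Zbtb18 had 0.94 (SE 0.34, limma adjusted p = 0.0569). Zbtb20, which acts in liver and hippocampus, had 0.38 (SE 0.62), and Zbtb17, the MYC partner Miz-1, had -0.03 (SE 0.27). Zbtb1, needed for lymphocyte development, had 0.92 (SE 0.40), Zbtb11 had 0.82 (SE 0.34) and Zbtb2 had 0.08 (SE 0.30). Of these, the 9 other than Zbtb4 did not pass the test, although Zbtb18 did with edgeR (adjusted p = 0.0416). At the low end stood Zbtb46, Zbtb3 at -0.37 (SE 0.47), Zbtb34 at -0.20 (SE 0.23), Zbtb39 at -0.20 (SE 0.40) and Zbtb32 at -0.16 (SE 0.21), none of them called.

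The fractions were next compared one at a time between genotypes. In the high polysome, 8 of the 36 members other than Zbtb7a (22.2%) were higher in KO and 4 (11.1%) were lower, where 25.3% and 21.1% of all genes were called, so the share of calls did not exceed the background. The largest rises were those of Zbtb6 (1.56, SE 0.22, limma adjusted p = 1.12e-05), Zbtb42 (1.24, SE 0.37, adjusted p = 0.00998), Zbtb7c (1.04, SE 0.20, adjusted p = 0.000328) and Zbtb7b (1.02, SE 0.21, adjusted p = 0.000532). Zbtb4 (0.97, SE 0.25) and Zbtb43 (0.72, SE 0.12) followed, and Zbtb38 and Zbtb11 rose by about 0.54 each. Zbtb46 was lower at -1.11 (SE 0.21, adjusted p = 0.000219), with 9.97, 9.17 and 7.51 CPM in WT and 4.11, 4.44 and 3.57 CPM in KO. Zbtb44 (-0.60), Zbtb10 (-0.45) and Zbtb25 (-0.44) were the other lower members. The rise of Zbtb11 was lost with edgeR, with DESeq2 and without any gradient except WT gradient 3, and that of Zbtb38 without WT gradient 1 or 2 or KO gradient 3. Without WT gradient 1 or KO gradient 3 the higher members numbered 5, and the lower ones numbered 2 without WT gradient 2 or 3 or KO gradient 1 or 2.

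**Figure D4:**
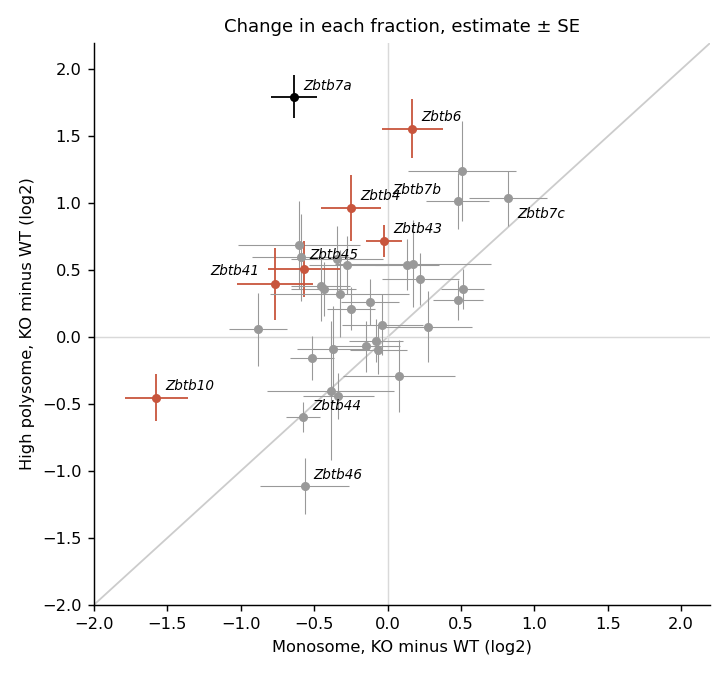
KO minus WT change in the monosome (horizontal axis) and in the high polysome (vertical axis) of the 37 tested members, in log2 units with ± 1 SE. Genes on the diagonal changed equally in both fractions. Zbtb7a (black) and the 6 called members (red) lie above the diagonal, while Zbtb7b and Zbtb7c lie nearer to it and Zbtb44 lies on it. The monosome changes of Zbtb10 (-1.57), Zbtb41 (-0.77) and Zbtb45 (-0.57) were larger in size than their high polysome changes (-0.45, 0.40 and 0.51).

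In the monosome, 3 of the 36 members (8.33%) were higher in KO and 5 (13.9%) were lower, beside 18.6% and 20.1% of all genes. Zbtb10 changed most, at -1.57 (SE 0.21, limma adjusted p = 8.35e-06), and Zbtb18 followed at -0.88 (SE 0.20, adjusted p = 0.00142). Zbtb18 had 17.1, 13.2 and 12.2 CPM in WT monosomes and 7.75, 6.98 and 7.41 CPM in KO monosomes, without overlap. Zbtb41 (-0.77), Zbtb44 (-0.58) and Zbtb22 (-0.51) were also lower. The call of Zbtb41 was lost without WT gradient 2 or 3 or KO gradient 1 or 2 (limma adjusted p from 0.0765 to 0.112). It was also lost without the filter on low counts (0.0631) and at equal depth (-0.28, adjusted p = 0.53). That of Zbtb22 was lost without KO gradient 2 (0.0518), without the filter (0.0538) and at equal depth (0.0511). The higher members were Zbtb7c at 0.82 (SE 0.27, adjusted p = 0.0195), Zbtb32 at 0.51 and Zbtb34 at 0.48. The call of Zbtb34 was lost without any 1 WT gradient and without KO gradient 2 or 3 (limma adjusted p 0.0502 to 0.196). That of Zbtb32 was lost at equal depth (0.0523) and without WT gradient 3 (0.0683). The higher calls numbered 1, 0 and 1 without WT gradient 2, WT gradient 3 and KO gradient 3, and 1 at equal depth, and the lower calls numbered 3 without KO gradient 2.

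In the low polysome, 2 of 36 members (5.56%) were higher in KO and 9 (25.0%) were lower, beside 23.4% and 24.3% of all genes. Zbtb46 was lowest at -1.22 (SE 0.26, limma adjusted p = 0.000635), with 5.49, 7.01 and 5.18 CPM in WT and 2.48, 3.26 and 2.01 CPM in KO. Zbtb18 (-0.99), Zbtb10 (-0.90), Zbtb1 (-0.71), Zbtb37 (-0.67), Zbtb44 (-0.61), Zbtb21 (-0.57), Zbtb22 (-0.52) and Zbtb40 (-0.51) were the others. Zbtb7c (0.71) and Zbtb34 (0.67) were higher. The call of Zbtb40 was not stable, as it was lost with edgeR (adjusted p = 0.0894), with DESeq2 (0.082), at equal depth (-0.20, adjusted p = 0.647) and without any 1 gradient (0.055 to 0.0991). That of Zbtb1 was lost with edgeR (0.0588), at equal depth (0.0888) and without WT gradient 2 or 3 or KO gradient 1 or 3 (0.122 to 0.181). Zbtb37 was not called without WT gradient 2 or 3 or KO gradient 1 or 2 (limma adjusted p 0.0918 to 0.171). Nor was it without the filter on low counts (0.0898) or with the compared groups alone (0.0842). Zbtb21 was not called without WT gradient 3 (0.09) or KO gradient 3 (0.0883). Its call was also lost without the filter (0.067), at equal depth (0.0816) and with the compared groups alone (0.0613). Zbtb18 was not called at equal depth (-0.49, adjusted p = 0.382). Without WT gradient 3 the lower members numbered 5, and without WT gradient 1 or 2 or KO gradient 2 Zbtb34 alone was higher. At equal depth neither higher call held, with Zbtb34 at 0.52 (adjusted p = 0.091) and Zbtb7c at 0.48 (adjusted p = 0.3). The low polysome was also set against the monosome. The KO effect on low polysome over monosome was called for 0 of the 36 members in limma, where 2.31% of all genes rose and 2.39% fell, and edgeR and DESeq2 also called 0. With so few genes called, 0 of 36 is near the background and does not show that the members stayed level. The values ran from -0.71 to 1.035, with a median of 0.068 beside 0.018 over all genes. At an unadjusted p under 0.05, limma had 1 rising, and the share of all genes at that threshold was not counted. Zbtb7a had 0.91 (SE 0.22) in this ratio, which shares the monosome libraries with the contrast that chose it.

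Zbtb44, Zbtb7c and Zbtb10 were called in the same direction in all 3 fractions. In each fraction and direction 18.6% to 25.3% of all genes were called. The share called in all 3 fractions was not counted, so these members are described as single genes and not as a trait of the family. Zbtb44 had 223, 223 and 280 CPM in WT monosomes and 154, 165 and 167 CPM in KO monosomes. Low polysomes had 258, 296 and 315 CPM in WT and 196, 193 and 179 CPM in KO, and high polysomes 210, 207 and 186 CPM in WT and 139, 128 and 131 CPM in KO. Every KO library of a fraction was below every WT library of it. Its KO level was 65.3% to 66.9% of WT in the 3 fractions, and the KO effect on its translation level was -0.02 (SE 0.16, limma adjusted p = 0.943). Zbtb7c was called higher in all 3 fractions. Its monosome call was lost when WT gradient 2 or 3 or KO gradient 3 was left out and at equal depth (0.53, adjusted p = 0.144). Its low polysome call was lost without WT gradient 1 or 2 or KO gradient 2, at equal depth (0.48, adjusted p = 0.3), with the compared groups alone (0.08) and without the filter on low counts (0.0511). Zbtb10 was called lower in all 3, but its high polysome call held in 1 of the 6 settings that left out a gradient. The family total without Zbtb7a was 758 ± 7.99 CPM in KO monosomes against 885 ± 40.0 CPM in WT, 651 ± 37.9 against 764 ± 56.3 CPM in low polysomes and 670.1 ± 18.9 against 629 ± 12.7 CPM in high polysomes (SD, n = 3 each). Zbtb44 alone had a mean of 162 CPM in KO monosomes against 242 in WT, and 189 against 290 CPM in low polysomes. Most of the fall of the total in these fractions was thus that of Zbtb44.

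Genes of the same architecture under other names, and proteins that BTB domains bind, were then examined. Of 8 listed BTB zinc finger genes 7 were tested (Bcl6, Hic1, Hic2, Patz1, Mynn, Gzf1 and Zfp131), and of these 4 (57.1%) rose in translation level and 0 fell, with a median of 0.79, where 10.7% of all genes rose, 7.09% fell and the median was 0.022. Bcl6, the repressor of the germinal centre, had 1.57 (SE 0.33, limma adjusted p = 0.00386), followed by Patz1 at 1.0 (SE 0.21), Hic2 at 0.80 (SE 0.16) and Gzf1 at 0.79 (SE 0.24). For Bcl6, log2(high polysome / monosome) was -0.35, -0.81 and -0.33 in WT and 0.80, 1.06 and 0.87 in KO. At an unadjusted p under 0.05, 0 of these 7 fell, and the share of all genes at that threshold was not counted. Of 12 BTB partners, 3 (25.0%) rose and 2 (16.7%) fell, beside those same 10.7% and 7.09%, with a median of 0.15. The corepressor subunit gene Sin3a had 0.82 (SE 0.25, adjusted p = 0.0301), Bcor 0.67 and the histone deacetylase gene Hdac1 0.52. The fallers were Sin3b at -0.81 (SE 0.16, adjusted p = 0.0022) and Rbx1, the RING subunit of CUL3 ligases, at -0.81 (SE 0.18, adjusted p = 0.00524). In WT cells 8 of the 12 (66.7%) had more high polysome than monosome signal and 1 (8.33%) had less, with a median of 0.61, where 28.9% and 32.2% of all genes were called. The difference of either list from the background or from the ZBTB family was not tested.

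Matches to the ESCC seed were counted in the whole family. They were found in 15 of 39 members (38.5%) and in 40.5% of the 37 tested members, beside 21.9% of 11745 tested protein-coding genes. However, the longest 3′ UTR of a member had a median of 2666 nt and that of all genes 1136 nt. Of 1120 other genes with a 3′ UTR within 20% of the length of that of Zbtb7a, 46.0% held a match. These genes were matched to Zbtb7a and not to the family, whose 3′ UTRs ran from 50 to 23858 nt. An 8mer was found in 3 members, Zbtb41, Zbtb37 and Zbtb5, or 7.69%, beside 3.77% of all genes and 7.77% of the genes of that 3′ UTR length. Of the 6 called members, Zbtb6, Zbtb4, Zbtb41 and Zbtb43 hold a match and Zbtb10 and Zbtb45 hold none. The matches of the 4 are shown for comparison with those of Zbtb7a, on GRCm38, with the match in capitals.
Zbtb6, 7mer-m8 at chr2:37425927-37425933, minus strand: ctataattctAGCACTTgggagataga
Zbtb6, 7mer-m8 at chr2:37426053-37426059, minus strand: aaaatttgtgAGCACTTtgaaagtttt
Zbtb4, 7mer-m8 at chr11:69780098-69780104, plus strand: cctgtggctaAGCACTTtctcaataca
Zbtb4, 7mer-m8 at chr11:69783681-69783687, plus strand: tgccagagctAGCACTTgaataaggtt
Zbtb41, 7mer-m8 at chr1:139449055-139449061, plus strand: aattgcttttAGCACTTttgtgtgtgc
Zbtb41, 8mer at chr1:139449206-139449213, plus strand: aaactgtttaAGCACTTAagaaatgaag
Zbtb41, 8mer at chr1:139450425-139450432, plus strand: tagatacgttAGCACTTAatctgtaaat
Zbtb43, 7mer-m8 at chr2:33452002-33452008, minus strand: ggcatataaaAGCACTTtgtattaaac

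Among the 14 tested members other than Zbtb7a with a match the median KO effect on translation level was 0.83 and 4 rose. Among the 22 without a match the median was 0.17 and 2 rose. Over all genes the medians were 0.11 for 2571 genes with a match and -0.014 for 9174 without, and 13% and 10.6% rose. In genes of the 3′ UTR length of Zbtb7a they were 0.10 for 515 with a match and 0.048 for 605 without. The members with a match did not all have large values. Zbtb44 holds 2 matches at -0.02, Zbtb7c holds 1 at 0.22, and Zbtb20, with the longest 3′ UTR at 23858 nt, holds 1 at 0.38. A seed match is a property of the sequence and does not show that the miRNA bound there.

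**Figure D5:**
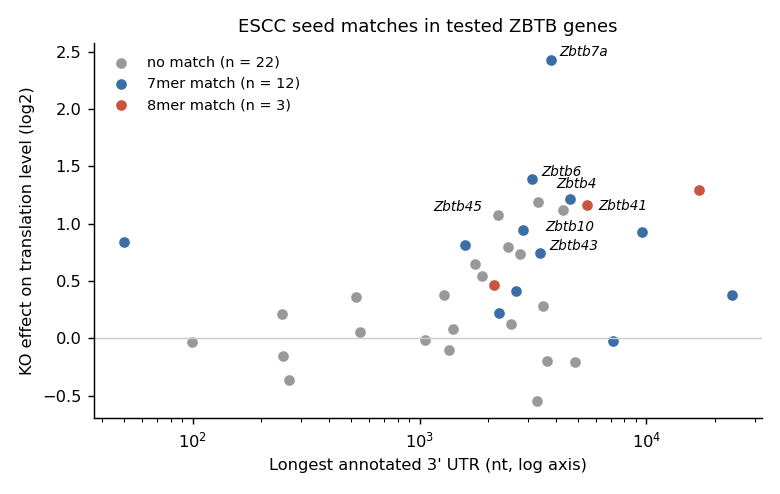
KO effect on translation level (log2, vertical axis) against the longest annotated 3′ UTR (nt, log axis) of the 37 tested members, coloured by ESCC seed match. The names are those of Zbtb7a and the 6 called members. Members with a match other than Zbtb7a had a median of 0.83 and those without 0.17, and 3 members held an 8mer.

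Across the 36 tested members other than Zbtb7a, Spearman's rho between the KO effect and the 3′ UTR length was 0.352, that with the coding length was 0.254, and that with the mean CPM was -0.042. Genes are not independent replicates, and these points share libraries. Members with a coding length over 2000 nt had a median effect of 0.80 (n = 15), those of 1500 to 2000 nt 0.36 (n = 13) and those under 1500 nt 0.17 (n = 8). Of 17 other genes within 100 kb of Zbtb7a, 8 were tested and 1 rose in translation level, the elongation factor gene Eef2 at 23.6 kb, with 2.17 (SE 0.28, limma adjusted p = 9.88e-05). The other 7 ranged up to 0.84 for Dapk3 and down to -0.13 for Slc39a3. Most of the difference lay in the monosome. The KO difference of Eef2 was -1.81 (SE 0.19) in the monosome and 0.36 (SE 0.20) in the high polysome, beside the -0.64 and 1.79 of Zbtb7a.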

How the data were processed

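Libraries were made with the QuantSeq 3′ FWD kit. Per the file headers and the study's methods, the authors trimmed reads (cutadapt 1.14), kept unique STAR 2.5.3a alignments to mm10, and deposited counts per gene made with featureCounts 1.5.3 by strand on Gencode M14. Reads shared by near-identical genes are missing, and PCR copies are included. Symbols and 3′ UTRs were from Gencode M21 (same assembly), which matched 51274 of 51467 genes. The 92 spike-in sequences were left out.

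Genes with at least 3 CPM in at least 3 libraries (12705) were scaled by TMM (edgeR 4.0.16). In R 4.3.3, limma 3.58.1 fitted 6 group means to the voom-weighted values of all 18 libraries. Tests were two-sided, adjusted by Benjamini-Hochberg over all genes. The choice of limma, the filter and the interaction was taken from the study. The steps were tested on simulated data. Alternatives were edgeR's quasi-likelihood test, DESeq2 1.42.0, other scaling, filters and depth, a replicate block, and leaving out each gradient. p-values measure the spread between gradients, which may be technical.

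The members, lists and naming rule were chosen with earlier results of these data known. Named were Zbtb7a and its namesakes, the called members, the 5 largest and 5 smallest effects, members with known roles, those at the edges of abundance and Ddx6; others were itemised after their values were seen. An item of the list of BTB partners is not reported here. Fractions of a gradient were paired by their common lysate, with 18 correlations of deviations from -0.173 to 0.464 (median 0.087). The main fit did not use this pairing, which entered the tests only as the replicate block among the alternatives.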

Additional observations from a re-analysis of the deposited data

Results flagged for a closer look

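In 6 members other than Zbtb7a the change from monosome to high polysome differed between WT and KO by the interaction test in limma. The KO minus WT differences were 0.74 for Zbtb43, 1.08 for Zbtb45, 1.12 for Zbtb10, 1.16 for Zbtb41, 1.21 for Zbtb4 and 1.39 for Zbtb6. In the spike-in sequences, which entered no comparison, the 18 libraries held between 28 and 169 counts, or at most 0.00217% of a library's counts.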

How the results depend on the processing

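Zbtb6 and Zbtb10 were called in translation level under all 15 alternatives, and 0 members other than Zbtb7a were called lower under any. Leaving out each gradient in turn gave 2 to 7 members raised in translation level. For the single fractions these settings gave 0 to 3 higher and 3 to 6 lower members in the monosome, 1 to 2 higher and 5 to 8 lower in the low polysome, and 5 to 11 higher and 2 to 4 lower in the high polysome. In the WT comparison of high polysome with monosome they gave 1 to 2 higher and 13 to 15 lower. At equal depth 1 member was higher in the monosome, 5 were lower in the low polysome and 2 were lower in the high polysome. Without a filter on low counts 3 were lower in the monosome, 1 was higher and 5 were lower in the low polysome, and 2 were lower in the high polysome. With the compared groups alone in the fit, 1 was higher and 5 were lower in the low polysome. The cause was not tested.

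Signs turned for some of the named members that were not called, among them Zbtb20, Zbtb24 and Zbtb3, which stood at 0.38, 0.38 and -0.37. At equal depth Zbtb2 was -0.24, Zbtb17 0.08, Zbtb20 -0.96, Zbtb3 0.20 and Zbtb39 0.13. Zbtb2 was also -0.04 with library size alone and -0.03 without the filter and with a filter of 1 CPM. Leaving out a gradient gave -0.28 to 0.20 for Zbtb17, -0.11 to 0.24 for Zbtb2, -0.06 to 0.62 for Zbtb20, -0.04 to 0.60 for Zbtb24, -0.71 to 0.41 for Zbtb39 and -0.19 to 0.06 for Zbtb44.

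With the gradient as a replicate block, 7 members rose in translation level. Numbers shared between WT and KO gradients pair no samples (correlations of deviations from -0.485 to 0.243). With them as a block 11 members were higher and 3 lower in the high polysome, and the calls of Zbtb40 in the low polysome (adjusted p = 0.0748) and Zbtb25 in the high polysome (0.0546) were lost.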
